A study of Homo sapiens with 18 samples.

Results

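The translation initiation factors are the protein-coding genes whose symbol is EIF followed by a digit, from EIF1 to EIF6. Symbols for the Ensembl identifiers of a gene count table came from a list of gene names, and gene types from the GENCODE 29 annotation. A low-count filter was applied to the EIF genes as to all other genes. Of 56 such genes, 52 passed and were analysed, among 16794 genes tested and 58395 identifiers in all. All 52 were above the filter's level in every library of all 6 groups, so none was kept through a group in which it was high. Within the family no value but this filter decided which genes were kept. The family itself was chosen with earlier results of these data known. EIF1AY, EIF4A1, EIF4E1B and EIF4EBP3 had 0 counts in every library and did not pass. The genes just inside were EIF5AL1 with 17 to 55 counts per library, EIF3CL with 42 to 158 and EIF4E3 with 62 to 226.

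The cells were BxPC-3, a human line established from a pancreatic adenocarcinoma and grown here in medium with serum. They received HGF at 80 ng/ml, MSP at 100 ng/ml or phosphate-buffered saline as vehicle, and RNA was taken for sequencing 4 h or 1 h later, with 3 libraries in each of the 6 groups. HGF activates the receptor tyrosine kinase MET, and MSP activates the related receptor RON. The design sets each ligand against vehicle and against the other ligand at each time. All groups are the same line with no genetic change. The labels speak of triplicates without saying that they were separate cultures, so the p-values reflect the spread between the samples at hand, and that spread may be technical.

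Initiation factors bring the initiator tRNA, the small ribosomal subunit and the capped end of an mRNA together, choose the start codon and let the large subunit join. The eIF4 factors bind the cap and unwind the leader, eIF3 bridges the mRNA and the small subunit, and eIF2 carries the initiator tRNA as a GTP complex that eIF2B recharges. Growth factor signalling through mTOR and the MAP kinases is known to act on this machinery through proteins that bind or phosphorylate eIF4E, and stress acts on it through the eIF2 kinases.

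Library totals ran from 30556613 to 48477215 counts. The level of a gene is its CPM, its count relative to a library size scaled by a TMM factor, and fold changes are log2 values with their standard error (SE). The TMM factors were 0.841 to 0.860 in the HGF libraries at 4 h, 0.980 to 0.985 in those of HGF at 1 h and 1.03 to 1.07 in all other libraries. Without them, with library totals as the scale, the median of all genes 4 h after HGF was -0.35, against -0.06 with TMM factors, and at 1 h it was -0.11, against -0.00. The numbers of family members called for HGF are therefore given under both scalings. Values of single genes are with TMM factors unless library totals are named, and many are given with TMM factors only. With library totals the HGF fold changes were lower, as for EIF3D at 4 h against vehicle (0.13 in place of 0.42). A gene is said to have risen or fallen where it passed the test with TMM factors. Mitochondrial transcripts held 6.11% to 6.22% of counts 4 h after HGF, against 8.73% to 8.98% in vehicle at 4 h. The sums of marker genes that follow are CPM with library totals, without TMM factors. All 7 epithelial markers were present, with a summed level of 5510 to 6500 CPM. The 5 fibroblast markers summed to 9.59 to 9.75 CPM 4 h after HGF, against 9.82 to 11.6 CPM in vehicle. Most of this came from COL1A1 (255 to 512 counts per library over all groups) and LUM (20 to 105), while COL1A2, PDGFRB and DCN had 0 to 11 counts. The leukocyte markers CD3E, CD14 and PTPRC summed to 1.28 to 2.07 CPM 4 h after HGF, against 2.30 to 2.71 CPM in vehicle. Of these CD3E had 25 to 57 counts, CD14 11 to 75 and PTPRC 0 to 4. The 3 endothelial markers PECAM1, CDH5 and VWF summed to 2.40 to 2.82 CPM 4 h after HGF, against 7.52 to 8.15 CPM in vehicle. Over all groups VWF had 31 to 276 counts per library, CDH5 14 to 74 and PECAM1 19 to 74. With library totals the fibroblast, leukocyte and endothelial sums were thus lower in every HGF library than in every vehicle library at 4 h. Sums with TMM factors were not computed. The lower TMM factors of the HGF libraries would raise their sums relative to vehicle, so the separation may not hold on that scale. All groups were the same cultured line, and whether these counts came from the line itself or from other cells was not tested. In bulk RNA a change in cell number and a change in RNA per cell cannot be told apart. The part of these markers and of the mitochondrial share in the results below was not tested. Replicates differed by more than counting noise in every pair, with a chi-square per degree of freedom of 2.81 to 19.3. The 3 highest values were those of the MSP pairs at 1 h.

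In vehicle-treated cells at 1 h the level per kb of exon spanned from 173.2 ± 6.59 CPM per kb for EIF4B to 0.156 ± 0.00713 for EIF5AL1 (SD, n = 3 each). EIF4B, which stimulates the eIF4A helicase, was followed by EIF4H (152.0 ± 3.30 CPM per kb), EIF4G2 (138.8 ± 5.64) and EIF3I (118.8 ± 4.21). EIF5A, a hypusinated factor, was next at 89.4 ± 2.94 CPM per kb and did not differ from EIF3A (88.0 ± 1.95) beyond their spread. The cap-binding protein gene EIF4E stood at rank 46 of 52 with 2.75 ± 0.0531 CPM per kb. Its paralog EIF4E3 was at 0.422 ± 0.0358. These lengths are the union of all annotated exons, which lowers genes with many long annotated ends, and levels of near-identical copies are uncertain. The pairs concerned are EIF3C and EIF3CL, EIF5A and EIF5AL1, and EIF2S3 and EIF2S3B, and the table also held 87 EIF pseudogenes and non-coding genes.

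No level can be given for EIF4A1, the gene of the main eIF4A helicase. With 0 counts seen, up to 3 could have been missed, which is 0.0619 to 0.0982 CPM with library totals, if its reads were assigned to it. In the annotation 48.6% of its exon bases are shared with other genes on the same strand, and its pseudogene EIF4A1P10 had 87 to 280 counts per library. For EIF4EBP3, 73.4% of the exon bases are shared with the read-through gene ANKHD1-EIF4EBP3, which had 46 to 131 counts. Whether shared bases account for the zeros was not tested.

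Most initiation factor genes were higher 4 h after HGF than in vehicle. With TMM factors 39 of 52 rose and 7 fell, which is 88.5% called, against 67.9% of all genes tested (33.1% higher and 34.8% lower). With library totals 31 rose and 12 fell, against 21.2% and 52% of all genes. The genes called the same way under both scalings were 31 higher and 7 lower. The median log2 fold change of the 52 was 0.52 with TMM factors and 0.23 with library totals, against -0.06 and -0.35 over all genes tested. These shares and medians of all genes are also the background for the role groups at 4 h below. The HGF and vehicle libraries did not overlap for 48 of the 52 genes, against 70.8% of all genes tested. Together the 52 genes held 1.19% to 1.21% of all counts in the HGF libraries at 4 h, 1.04% to 1.05% in the MSP libraries and 1.02% to 1.04% in the vehicle libraries, a share that needs no TMM factors.

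**Figure D1:**
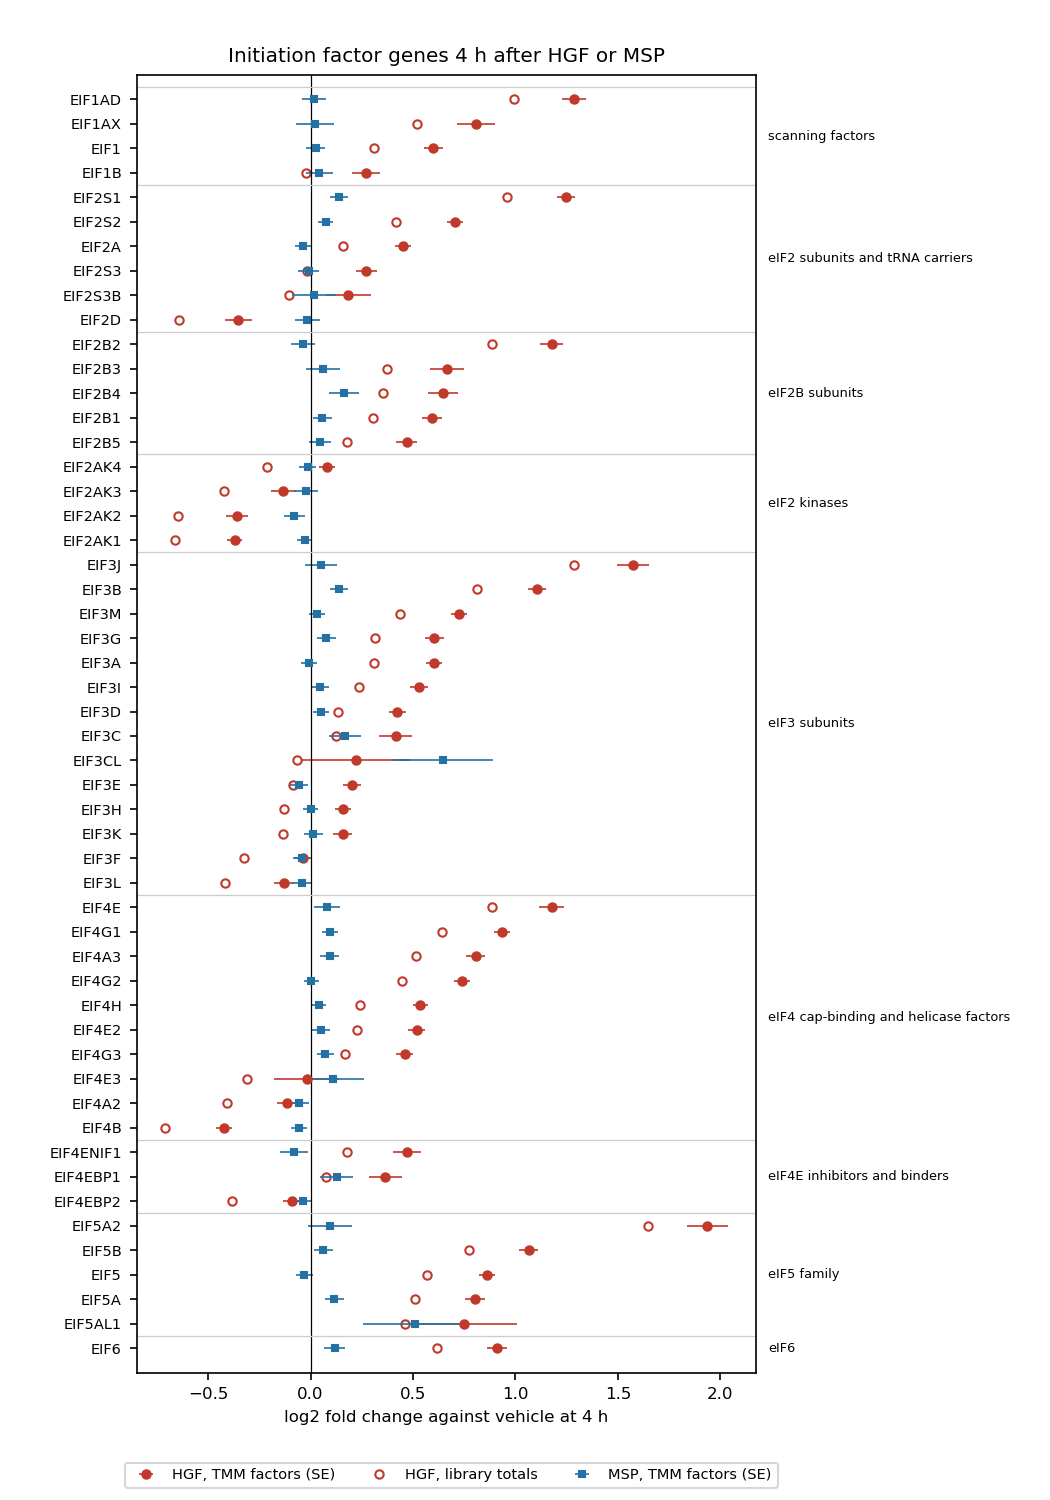
Log2 fold change against vehicle at 4 h for the 52 initiation factor genes, grouped by role (filled circles, HGF with TMM factors; open circles, HGF with library totals; squares, MSP with TMM factors; bars, SE). HGF values run from -0.42 (EIF4B) to 1.94 (EIF5A2), and MSP values from -0.08 to 0.65.

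**Figure D2:**
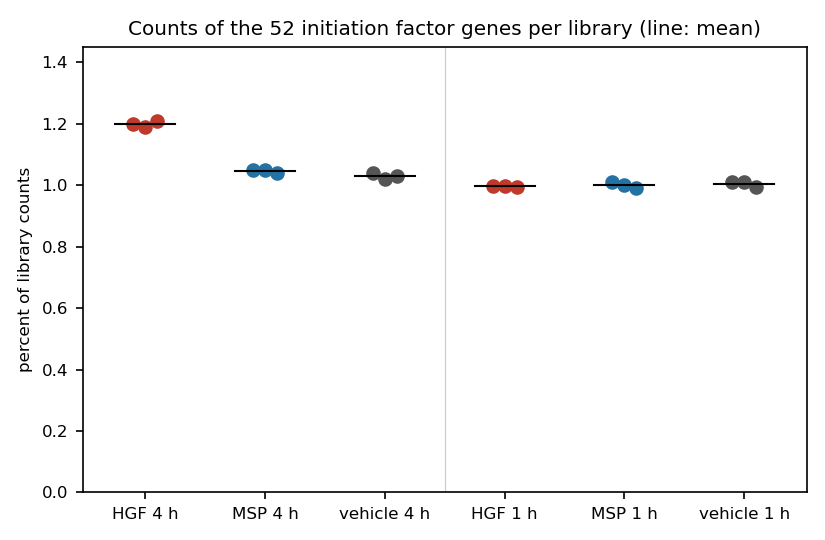
Percent of each library's counts held by the 52 genes, from 0 upward, by treatment and time (points, 3 libraries per group; line, mean). The HGF libraries at 4 h, at 1.19% to 1.21%, lie above all others.

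Scanning factors open the small subunit for start-codon search. EIF1AD was placed in this group by its name, not by a known scanning role. All 4 tested genes of the group rose at 4 h, and 3 did with library totals. EIF1AD, which carries an eIF1A-like domain, had 79.9, 76.4 and 79.9 CPM 4 h after HGF, against 35.5, 31.3 and 30.2 CPM in vehicle. Every HGF library was well above every vehicle library. The log2 fold change was 1.29 (SE 0.06, adjusted p = 1.42e-18, quasi-likelihood F test of edgeR, Benjamini-Hochberg adjusted), and 0.99 with library totals. EIF1, whose product rejects wrong start codons, had 505, 482 and 498 CPM after HGF, against 327, 333 and 322 CPM in vehicle (log2 fold change 0.60 with SE 0.05, adjusted p = 8.23e-13). EIF1AX rose by 0.81, and EIF1B by 0.27 with TMM factors but was at -0.02 (adjusted p = 0.801) with library totals.

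The genes of the eIF2 complex moved unequally. EIF2S1 encodes the alpha subunit, the substrate of the eIF2 kinases. It had 249, 248 and 259 CPM 4 h after HGF, against 112, 102 and 105 CPM in vehicle. The groups were far apart and tight, and the log2 fold change was 1.25 (SE 0.05, adjusted p = 5.23e-21, or 0.96 with library totals). EIF2S2, the beta subunit, rose by 0.71 (0.41 with library totals). EIF2S3, the gamma subunit, had 262, 268 and 280 CPM after HGF, against 227, 225 and 219 CPM in vehicle. It rose by 0.27 with TMM factors and was at -0.02 (adjusted p = 0.736) with library totals. Its intronless copy EIF2S3B was at 0.18 (adjusted p = 0.135). EIF2A and EIF2D can deliver the initiator tRNA without eIF2. EIF2A rose by 0.45, whereas EIF2D fell, with 23.5, 22.9 and 20.9 CPM after HGF, against 27.9, 29.1 and 28.7 CPM in vehicle. Its log2 fold change was -0.35 (SE 0.06, adjusted p = 1.55e-05), and -0.64 with library totals.

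All 5 subunit genes of eIF2B, the exchange factor that recharges eIF2, rose 4 h after HGF under both scalings, with a median of 0.65 (0.36 with library totals). EIF2B2, the beta subunit, moved furthest, with 52.9, 54.4 and 55.5 CPM after HGF, against 24.3, 25 and 22.8 CPM in vehicle (log2 fold change 1.18 with SE 0.06, adjusted p = 7.74e-18). The libraries of each group lay close together and the groups did not overlap. Of the exon bases of EIF2B2, 23.6% are shared with other genes, and whether reads were counted by strand is not known. EIF2B3, EIF2B4 and EIF2B1 rose by 0.67, 0.65 and 0.59. EIF2B5, the catalytic subunit, rose least of the 5, by 0.47 (SE 0.05, adjusted p = 2.50e-09).

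None of the 4 eIF2 kinase genes rose. EIF2AK1, the heme-regulated kinase, had 172, 174 and 173 CPM after HGF, against 224, 226 and 221 CPM in vehicle (log2 fold change -0.37 with SE 0.04, adjusted p = 2.23e-10). EIF2AK2, the kinase PKR that is activated by double-stranded RNA, had 57.5, 57.5 and 56.3 CPM after HGF, against 75.3, 70.3 and 73.8 CPM in vehicle (log2 fold change -0.36 with SE 0.05, adjusted p = 8.63e-07). For both genes all HGF libraries lay below all vehicle libraries, and the fall was larger with library totals (-0.66 and -0.65). EIF2AK3, the endoplasmic reticulum stress kinase PERK, was at -0.13 (adjusted p = 0.0546) with TMM factors and at -0.42 (adjusted p = 3.41e-07) with library totals. With TMM factors it passed as lower without robust estimation (adjusted p = 0.0495), with only the groups compared (0.0413) and without replicate 3 of HGF at 4 h (0.0307). EIF2AK4, the amino acid sensor GCN2, was at 0.08 (adjusted p = 0.0824) with TMM factors and at -0.21 (adjusted p = 2.12e-05) with library totals. With TMM factors 0 of the 4 kinase genes rose and 2 fell, against 33.1% and 34.8% of all genes tested. With library totals 0 rose and 4 fell, against 21.2% and 52%. The median of the kinases was -0.25, and -0.54 with library totals, against -0.06 and -0.35 over all genes tested.

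Of the 14 eIF3 subunit genes 11 rose and 1 fell, and with library totals 7 rose and 4 fell. EIF3J, a loosely bound subunit near the decoding site, had 326, 318 and 347 CPM after HGF, against 108, 107 and 118 CPM in vehicle. This was 2.98-fold higher (log2 fold change 1.57 with SE 0.08, adjusted p = 5.95e-13), with no overlap between the groups. EIF3B, a core scaffold subunit, had 661, 670 and 669 CPM after HGF, against 326, 310 and 295 CPM in vehicle (log2 fold change 1.10 with SE 0.04, adjusted p = 4.02e-20). EIF3A, the largest subunit, rose by 0.60 and EIF3D, which can itself bind a cap, by 0.42. EIF3M, EIF3G and EIF3I rose by 0.73, 0.60 and 0.53. EIF3C and EIF3E rose by 0.42 and 0.20 with TMM factors and did not pass with library totals, and EIF3CL was at 0.22 (adjusted p = 0.466). For other subunits the direction depended on the scaling or was downward. EIF3H and EIF3K rose by 0.16 each with TMM factors and fell by 0.13 each with library totals. EIF3F was at -0.04 (adjusted p = 0.453, and -0.33 with library totals). EIF3L had 168, 161 and 164 CPM after HGF, against 181, 177 and 182 CPM in vehicle (log2 fold change -0.13 with SE 0.05, adjusted p = 0.0164, and -0.42 with library totals). Its fall is uncertain, since 51.8% of its exon bases are shared with other genes and its adjusted p was 0.0656 without replicate 2 of HGF at 4 h.

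The cap-binding and helicase factors had 7 genes higher and 2 lower of 10, under both scalings. EIF4E had 87.3, 87.7 and 90.5 CPM after HGF, against 42.5, 38.3 and 36.8 CPM in vehicle, which was 2.26-fold higher (log2 fold change 1.18 with SE 0.06, adjusted p = 9.56e-17, or 0.89 with library totals). EIF4G1, the scaffold that joins eIF4E, eIF4A and eIF3, had 1160, 1240 and 1190 CPM after HGF, against 643, 612 and 626 CPM in vehicle (log2 fold change 0.93 with SE 0.04, adjusted p = 4.14e-19). Neither gene's groups came near each other. EIF4G2, a scaffold without an eIF4E site, rose by 0.74, EIF4A3, the helicase of the exon junction complex, by 0.81, and EIF4H, which assists eIF4A, by 0.53. EIF4E2, a cap-binding protein that acts as a repressor, rose by 0.52, and the scaffold gene EIF4G3 by 0.46. EIF4E3 was at -0.02 (adjusted p = 0.928). EIF4B, the most abundant of the family per kb in vehicle at 1 h, fell, with 787, 827 and 809 CPM after HGF, against 1060, 1090 and 1090 CPM in vehicle. Its log2 fold change was -0.42 (SE 0.04, adjusted p = 3.05e-11), and -0.71 with library totals. EIF4A2, the second eIF4A helicase, fell by 0.12 (adjusted p = 0.0388), with overlapping groups with TMM factors. With library totals it was at -0.41 and all HGF libraries lay below all vehicle libraries.

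The eIF4E-binding proteins block eIF4E when not phosphorylated. EIF4EBP1 had 28.4, 24.9 and 25.5 CPM after HGF, against 21.8, 19.3 and 20 CPM in vehicle. It rose with TMM factors (log2 fold change 0.37 with SE 0.08, adjusted p = 0.000174) but was at 0.08 (adjusted p = 0.408) with library totals. EIF4EBP2 had 259, 265 and 260 CPM after HGF, against 270, 283 and 283 CPM in vehicle. Its log2 fold change of -0.09 passed narrowly (SE 0.04, adjusted p = 0.0494), and in 8 other settings it did not pass (adjusted p up to 0.25), while it was -0.38 (adjusted p = 7.25e-10) with library totals. EIF4ENIF1, the transporter that carries eIF4E into the nucleus, rose by 0.47 (0.18 with library totals).

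The genes grouped as the eIF5 family act at different steps, and all 5 rose (4 with library totals, the exception being the low-count retrocopy EIF5AL1). EIF5A2, the paralog of EIF5A that is amplified in some tumours, had 30.1, 29.8 and 31.3 CPM after HGF, against 8, 6.75 and 9.02 CPM in vehicle. At 3.83-fold higher (log2 fold change 1.94 with SE 0.10, adjusted p = 6.06e-17, or 1.65 with library totals) it moved furthest of the 52 genes. EIF5A itself had 557, 544 and 538 CPM after HGF, against 326, 312 and 302 CPM in vehicle (log2 fold change 0.80 with SE 0.05, adjusted p = 9.21e-16). EIF5B, the GTPase that joins the subunits, rose by 1.06, and EIF5, the GTPase activator of eIF2, by 0.86. EIF6, which keeps the large subunit from joining too early, had 190, 205 and 197 CPM after HGF, against 106, 108 and 101 CPM in vehicle (log2 fold change 0.91 with SE 0.05, adjusted p = 2.04e-16).

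**Figure D3:**
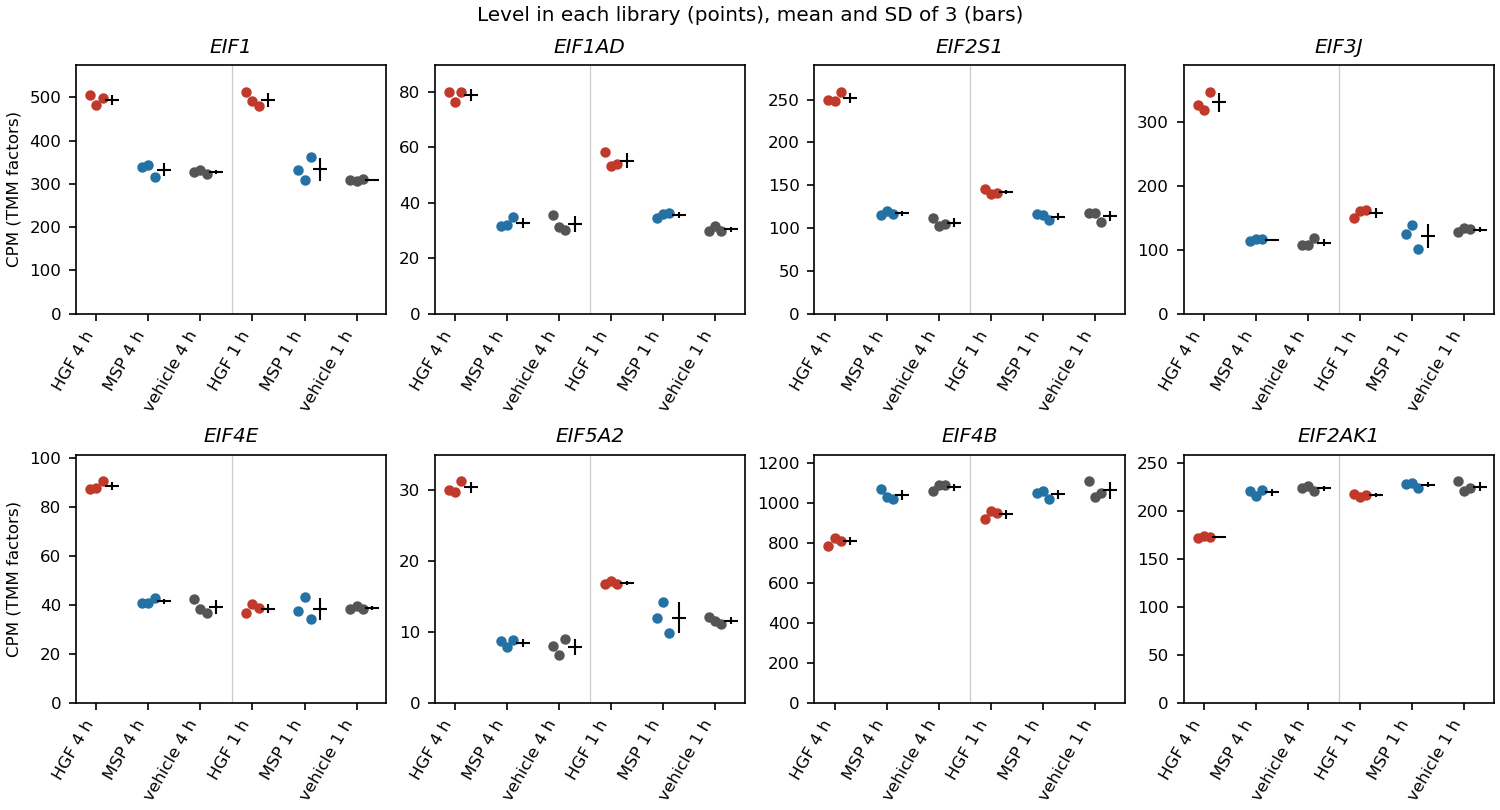
CPM with TMM factors of 8 initiation factor genes in each of the 18 libraries (points) with the mean and SD of 3 (bars), each axis starting at 0. EIF4E, at 87.3 to 90.5 CPM 4 h after HGF, lies at 34.3 to 43.3 CPM in all other groups, while EIF1 is at 480 to 513 CPM in the HGF libraries of both times.

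At 1 h fewer initiation factor genes differed between HGF and vehicle. With TMM factors 15 rose and 2 fell, or 32.7% of the 52, against 21% of all genes tested (13.8% higher and 7.16% lower). With library totals the split turned to 8 higher and 12 lower, against 9.07% and 21.4% of all genes, and 8 higher and 2 lower were called under both. The median of the 52 was 0.03 with TMM factors and -0.07 with library totals, against -0.00 and -0.11 over all genes. The HGF and vehicle libraries did not overlap for 24 genes, against 35.7% of all genes tested.

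The scanning factor group, with EIF1AD counted in it, had the highest median of the role groups at 1 h, 0.52 (0.42 with library totals). In it 3 of 4 genes rose under both scalings. EIF1AD had 58.2, 53.2 and 53.8 CPM 1 h after HGF, against 29.9, 31.5 and 29.7 CPM in vehicle (log2 fold change 0.86 with SE 0.06, adjusted p = 1.80e-13). EIF1 had 513, 491 and 480 CPM after HGF, against 309, 306 and 311 CPM in vehicle (log2 fold change 0.68 with SE 0.05, adjusted p = 2.47e-13), and EIF1B rose by 0.36. In all 3 genes the HGF libraries were above all vehicle libraries. Of the other early rises, EIF5A2 had 16.8, 17.2 and 16.7 CPM after HGF, against 12.1, 11.6 and 11.1 CPM in vehicle (log2 fold change 0.54 with SE 0.10, adjusted p = 4.90e-05). EIF2B2 rose by 0.45 and EIF2S1 by 0.32, each with HGF libraries apart from vehicle. EIF4B was already lower, with 920, 961 and 951 CPM after HGF, against 1110, 1030 and 1050 CPM in vehicle (log2 fold change -0.17 with SE 0.04, adjusted p = 0.000830). EIF4ENIF1 had 21.0, 20.2 and 18.4 CPM after HGF, against 23.1, 21.7 and 23.6 CPM in vehicle. Its log2 fold change of -0.20 (adjusted p = 0.0342) was lost without replicate 3 of HGF at 1 h (adjusted p = 0.208) and when any of 3 other libraries was left out. No eIF2 kinase gene passed with TMM factors at 1 h, and 1 of the 14 eIF3 genes did, EIF3J at 0.26 (adjusted p = 0.0179, but 0.128 with library totals). With library totals 1 of the 4 kinase genes was lower, EIF2AK1 at -0.16 (adjusted p = 0.000787). Of the eIF3 genes 4 were lower and 0 higher on that scale, where 21.4% of all genes were lower.

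The response to HGF at 4 h was tested against that at 1 h with an interaction term. It differed for 42 of the 52 genes, 36 higher and 6 lower at 4 h, which is 80.8%, against 53.2% of all genes tested (26.8% higher and 26.4% lower). With library totals 30 were higher and 11 lower, against 18.6% and 37.9% of all genes. The log2 fold change of EIF4E was 1.18 at 4 h and -0.01 at 1 h, where it had 36.7, 40.2 and 38.5 CPM after HGF, against 38.4, 39.5 and 38.1 CPM in vehicle. The difference was 1.18 (SE 0.09, adjusted p = 1.25e-12). EIF5B behaved likewise, at 1.06 at 4 h and 0.02 at 1 h (difference 1.05, SE 0.07, adjusted p = 1.87e-14). EIF1 and EIF1B were at 0.60 and 0.27 at 4 h and at 0.68 and 0.36 at 1 h, and their differences of -0.08 and -0.09 did not pass with TMM factors (adjusted p = 0.304 and 0.457). Both did pass as lower at 4 h with library totals. EIF4ENIF1 was higher at 4 h (0.47) and lower at 1 h (-0.20), a difference of 0.67 (adjusted p = 6.91e-07), and EIF4EBP2 was at -0.09 at 4 h and 0.12 at 1 h, a difference of -0.21 (adjusted p = 0.00328). These last values are given although the naming rule does not call for them, having been chosen after they were seen.

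**Figure D4:**
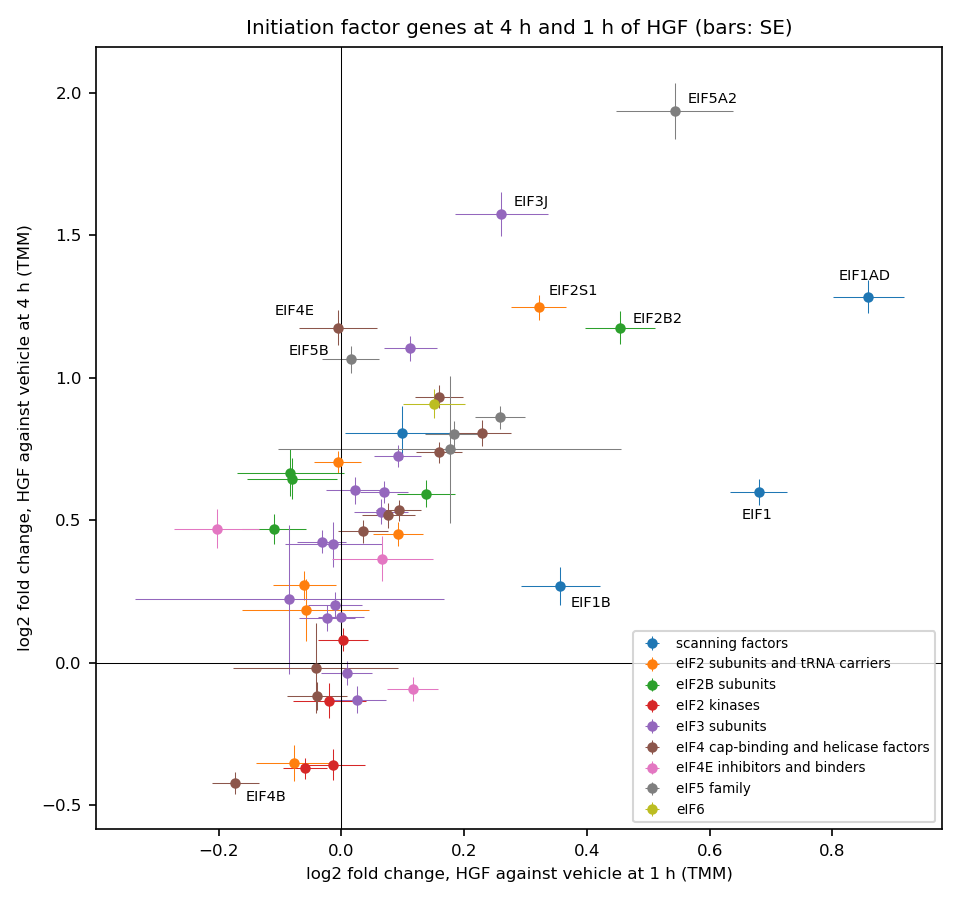
Log2 fold change of HGF against vehicle at 4 h (vertical axis) and at 1 h (horizontal axis) for the 52 genes, coloured by role, with TMM factors (bars, SE). EIF4E and EIF5B lie above 1 at 4 h and near 0 at 1 h, while EIF1 (0.60 at 4 h and 0.68 at 1 h) and EIF1AD (1.29 and 0.86) were up at both times.

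After MSP no initiation factor gene passed the test at either time with TMM factors or with library totals. At 4 h 0 of 52 were called by edgeR's quasi-likelihood test, against 1.07% of all genes tested (1.2% with library totals). DESeq2 called 0 as well, and 8 genes had an unadjusted p under 0.05. At 1 h 0 were called, against 0.834% of all genes (0.792% with library totals), 2 had an unadjusted p under 0.05, and DESeq2 called 1, EIF1AD. The MSP and vehicle libraries did not overlap for 11 genes at 4 h, against 19% of all genes, and for 7 at 1 h, against 11.5%. The median of the 52 was 0.04 at 4 h and 0.00 at 1 h, against -0.00 and 0.01 over all genes tested. MSP fold changes ran from -0.08 to 0.65 at 4 h and from -0.39 to 0.22 at 1 h, and EIF3CL, a low-count copy of EIF3C, was the highest at 4 h and the lowest at 1 h. No gene's response to MSP differed between 4 h and 1 h by the same test, against 0.322% of all genes, and 5 had an unadjusted p under 0.05.

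EIF1AD came nearest at 1 h, with 34.3, 35.8 and 36.2 CPM after MSP, against 29.9, 31.5 and 29.7 CPM in vehicle. The MSP libraries lay above all vehicle libraries, but the log2 fold change of 0.22 (SE 0.06) had an adjusted p of 0.0719. With DESeq2 its adjusted p was 0.0317. EIF1 (0.11, adjusted p = 0.518) and EIF2B2 (0.10, adjusted p = 0.725) had the next smallest p-values at 1 h. At 4 h these were EIF3B (0.14, adjusted p = 0.122), EIF2S1 (0.14, adjusted p = 0.143) and the near-identical copy EIF3CL (0.65, adjusted p = 0.248). EIF2S1 had 115, 120 and 116 CPM after MSP, against 112, 102 and 105 CPM in vehicle. EIF1AD had 31.4, 32.0 and 34.8 CPM 4 h after MSP, inside the vehicle range of 30.2 to 35.5 CPM.

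Set directly against each other, HGF and MSP differed at 4 h for 43 genes, 39 higher and 4 lower after HGF, which is 82.7%, against 66.4% of all genes tested. The background split was 32.7% higher and 33.8% lower. With library totals 29 were higher and 14 lower, against 19.8% and 53.4% of all genes. EIF5A2 had 30.1, 29.8 and 31.3 CPM after HGF, against 8.69, 7.83 and 8.85 CPM after MSP (log2 fold change 1.84 with SE 0.10, adjusted p = 1.39e-16). EIF4E was 1.10 higher (SE 0.06, adjusted p = 4.83e-16). EIF4B, EIF2AK1, EIF2D and EIF2AK2 were lower after HGF than after MSP, at -0.37, -0.34, -0.34 and -0.28. EIF2AK4, EIF3H and EIF3K were higher after HGF with TMM factors and lower with library totals. At 1 h 12 genes were higher and 2 lower after HGF, which is 26.9%, against 17.7% of all genes tested (11.4% higher and 6.36% lower), and with library totals 7 were higher and 11 lower, against 7.72% and 18.5%. EIF1AD was 0.64 higher (SE 0.06, adjusted p = 1.82e-10) and EIF1 0.57 higher (SE 0.05, adjusted p = 2.31e-11) after HGF than after MSP. EIF4ENIF1 (-0.19, adjusted p = 0.0496) passed only narrowly, and its adjusted p was 0.274 without replicate 3 of HGF at 1 h. The comparisons of each ligand with vehicle share the vehicle libraries.

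Some of the family also differed between the times without a ligand. In vehicle, 14 genes were higher and 5 lower at 4 h than at 1 h, which is 36.5%, against 20.9% of all genes tested (10.9% higher and 9.99% lower). With library totals 12 were higher and 7 lower, against 8.78% and 12.2%. Of the eIF3 genes 8 of 14 were higher, and 7 with library totals. EIF2B3 had 15.9, 16.1 and 15.1 CPM at 4 h, against 11.4, 12.7 and 10.2 CPM at 1 h (log2 fold change 0.46 with SE 0.09, adjusted p = 0.000288). EIF4EBP1 had 21.8, 19.3 and 20 CPM at 4 h, against 16.0, 14.6 and 14.9 CPM at 1 h (log2 fold change 0.43 with SE 0.08, adjusted p = 0.000371), and EIF5A was 0.32 higher. For each of these the 4 h libraries were above all 1 h libraries. EIF5A2 went the other way, with 8, 6.75 and 9.02 CPM at 4 h, against 12.1, 11.6 and 11.1 CPM at 1 h (log2 fold change -0.55 with SE 0.10, adjusted p = 0.000373). EIF4E3 was at -0.63 (SE 0.14, adjusted p = 0.00189) and EIF3J at -0.25 (SE 0.08, adjusted p = 0.0290), the last with an adjusted p of up to 0.111 when 1 library was left out. EIF5A2 and EIF3J, which had the largest fold changes 4 h after HGF, were thus lower in vehicle at 4 h than at 1 h.

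Other genes of the pathway were read from 2 lists. Among 36 tested regulators of initiation outside the family, 26 rose and 9 fell 4 h after HGF, against 33.1% and 34.8% of all genes tested. With library totals 14 rose and 14 fell, against 21.2% and 52%. Their median was 0.27 (-0.03 with library totals). BZW1, which encodes an eIF5-mimic protein, rose by 1.32 (SE 0.05, adjusted p = 3.98e-21), and PAIP2B, an inhibitor of the poly(A)-binding protein, fell, at -1.62 (SE 0.38, adjusted p = 0.000357). Both kept their direction with library totals. At 1 h 10 of the 36 were higher and 4 lower, against 13.8% and 7.16% of all genes, and with library totals 8 and 15, against 9.07% and 21.4%. PPP1R15A and PPP1R15B direct the phosphatase that reverses the action of the eIF2 kinases, and they were 1.59 (SE 0.04, adjusted p = 4.63e-24) and 0.95 (SE 0.05, adjusted p = 2.69e-15) higher 1 h after HGF. PPP1R15A also rose 1 h after MSP, by 0.36 (SE 0.04, adjusted p = 5.76e-07), the only gene of both lists to pass after MSP at either time with TMM factors. HGF exceeded MSP for it by 1.23 at 1 h, while DDIT4, an mTOR inhibitor, was lower after HGF than after MSP (-0.84, SE 0.04, adjusted p = 8.23e-16). At 4 h MKNK2, a kinase that phosphorylates eIF4E, was 1.24 higher after HGF than after MSP (SE 0.05, adjusted p = 1.35e-18).

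Among 16 tested elongation and termination factors 9 rose and 4 fell 4 h after HGF, against the same 33.1% and 34.8% of all genes. With library totals 4 rose and 8 fell, shares near the 21.2% and 52% of all genes. Their median was 0.14 (-0.15 with library totals). The release factor genes rose: ETF1 by 1.40 (SE 0.04, adjusted p = 6.94e-23) and GSPT1 by 1.16 (SE 0.04, adjusted p = 5.77e-21). At 1 h 3 of the 16 were higher and 2 lower (2 and 7 with library totals), against 13.8% and 7.16% of all genes (9.07% and 21.4%). Among those higher were ETF1 at 0.73 (SE 0.04, adjusted p = 2.98e-15) and GSPT2 at 0.39 (SE 0.07, adjusted p = 0.000137). In vehicle, PPP1R15B was at -0.32 and GCN1 at 0.30 at 4 h against 1 h, and GSPT2 at -0.23 and EEF1B2 at 0.19. The call of GSPT2 was lost when any of 3 libraries was left out (adjusted p = 0.0981 to 0.114), and that of EEF1B2 without replicate 2 of vehicle at 1 h (adjusted p = 0.0574).

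Promoter windows, 250 bases before to 50 after an annotated start, were found in RefSeq (GRCh38.p14) for 43 of the 52 genes. The first 5 transcribed bases were read because transcripts that begin with a C and a run of pyrimidines (5′ terminal oligopyrimidine tracts) are known as a class of growth-regulated mRNAs of the translation machinery. A C followed by 4 bases that are each C or T opened a transcript of 10 of the 43 genes (23.3%), against 5.14% of 27305 genes with a start in the table and 4.07% of 35116 starts. The feature was chosen after the expression values were seen, so it is described without a test. The 27305 genes also include genes that did not pass the count filter, which the 43 genes all did. The share among the genes tested was not determined. The windows of all 10 such genes come first, from the lowest to the highest fold change 4 h after HGF, to show the feature where genes fell and where they rose. Those of the 6 genes that rose furthest follow, and none of these has the feature. Each window is 20 bases before and 20 from the start, with the first 5 transcribed bases in capitals.
EIF4B, chr12:53006436-53006475, plus strand: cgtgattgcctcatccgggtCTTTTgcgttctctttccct
EIF2D, chr1:206612446-206612485, minus strand: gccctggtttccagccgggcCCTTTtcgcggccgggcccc
EIF4A2, chr3:186783557-186783596, plus strand: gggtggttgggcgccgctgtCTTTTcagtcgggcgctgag
EIF3F, chr11:7987317-7987356, plus strand: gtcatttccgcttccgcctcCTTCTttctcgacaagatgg
EIF3K, chr19:38619168-38619207, plus strand: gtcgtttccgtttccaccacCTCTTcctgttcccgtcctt
EIF2S3B, chr12:10505870-10505909, plus strand: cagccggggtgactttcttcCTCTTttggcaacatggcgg
EIF2S3, chrX:24054936-24054975, plus strand: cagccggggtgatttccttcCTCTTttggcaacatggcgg
EIF3D, chr22:36529147-36529186, minus strand: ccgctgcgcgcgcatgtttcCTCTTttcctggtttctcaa
EIF2A, chr3:150546767-150546806, plus strand: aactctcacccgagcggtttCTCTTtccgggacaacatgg
EIF3M, chr11:32583811-32583850, plus strand: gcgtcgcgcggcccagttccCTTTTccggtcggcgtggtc
EIF5A2, chr3:170908618-170908657, minus strand: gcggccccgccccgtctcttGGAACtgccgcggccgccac
EIF3J, chr15:44537127-44537166, plus strand: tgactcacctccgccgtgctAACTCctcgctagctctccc
EIF1AD, chr11:66002138-66002177, minus strand: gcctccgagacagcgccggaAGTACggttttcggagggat
EIF2S1, chr14:67360308-67360347, plus strand: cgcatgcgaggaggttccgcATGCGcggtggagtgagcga
EIF4E, chr4:98929114-98929153, minus strand: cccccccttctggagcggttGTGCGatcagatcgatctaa
EIF2B2, chr14:75002901-75002940, plus strand: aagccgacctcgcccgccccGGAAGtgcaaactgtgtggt

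The 10 genes with a pyrimidine start were EIF4B, EIF2D, EIF4A2, EIF3F, EIF3K, EIF2S3B, EIF2S3, EIF3D, EIF2A and EIF3M. Their log2 fold changes 4 h after HGF ran from -0.42 to 0.73 with a median of 0.17, and 5 rose and 3 fell. The other 33 ran from -0.36 to 1.94 with a median of 0.67, and 28 rose and 2 fell. With library totals the medians were -0.12 for the 10 genes, of which 3 rose and 5 fell, and 0.38 for the 33, of which 25 rose and 4 fell. Under both scalings the ranges overlapped.

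**Figure D5:**
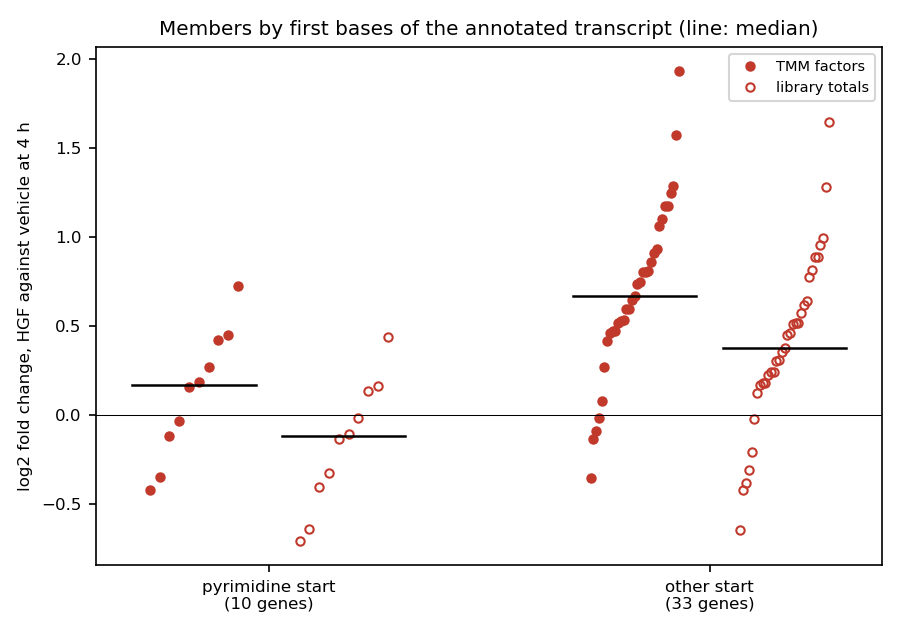
Log2 fold change of HGF against vehicle at 4 h for the 10 genes whose annotated transcript opens with a C and 4 pyrimidines and for the other 33 genes with a start in the table (filled circles, TMM factors; open circles, library totals; line, median). The medians are 0.17 and 0.67 with TMM factors, and the ranges overlap.

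A pair of short motifs was searched on both strands of the same windows. The E-box CACGTG, a sequence that MYC and related factors bind, was found for 11 of 43 genes (25.6%), against 8.77% of genes and 7.26% of starts. The ETS-type motif CCGGAAG was found for 13 of 43 (30.2%), against 12.2% of genes and 10.3% of starts. Neither motif contains the other. The median 4 h after HGF was 0.53 for genes with the E-box and 0.56 without it, and 0.59 with the ETS-type motif and 0.50 without it. As for the first bases, the genes set beside the 43 also include genes that did not pass the count filter. These are matches of letters and no measure of binding. The E-box was found at genes that rose and genes that fell. Stretches of 60 bases, with the motif in capitals, are shown for the pair of E-box genes that rose furthest and the pair that fell furthest.
EIF5A2, chr3:170908792-170908851, minus strand: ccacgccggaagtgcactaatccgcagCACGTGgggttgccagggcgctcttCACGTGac
EIF4E, chr4:98929324-98929383, minus strand: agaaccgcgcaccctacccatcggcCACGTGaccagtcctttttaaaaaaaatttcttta
EIF2AK2, chr2:37157129-37157188, minus strand: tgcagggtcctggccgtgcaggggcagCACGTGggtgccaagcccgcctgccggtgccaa
EIF4B, chr12:53006407-53006466, plus strand: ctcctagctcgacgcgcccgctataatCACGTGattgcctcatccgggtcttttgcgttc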

How the data were processed

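RNA of BxPC-3 cells was sequenced in 18 libraries, 3 for each of HGF, MSP and vehicle at 4 h and 1 h. The deposited table holds whole-number gene counts, made by the authors with STAR and featureCounts of Subread, per the submitters' processing notes. Per the labels, KAPA mRNA HyperPrep libraries were run in 2 lanes, which the table combines. Genome build, annotation and strand setting, not given in the sources used here, leave overlapping and antisense genes uncertain. Of 58395 identifiers 58275 were found in GENCODE 29 and 57754 in the list of gene names. Totals were 30556613 to 48477215 counts per library, and limits from a count of 0 (3 counts) cover counting error only.

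Genes were kept by filterByExpr (minimum count 10, minimum total 15) and fitted over all libraries with edgeR 4.0.16 (R 4.3.3): robust quasi-likelihood, TMM factors, 1 mean per group, residual df 12. P-values of 9 comparisons were adjusted by Benjamini-Hochberg over all 16794 genes, with a threshold of 0.05, and the script was tested on simulated data. Alternatives were library totals, DESeq2 1.42.0 size factors and Wald test, no low-count filter, only the compared groups, no robust estimation, a replicate block, and leaving out each library.

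The initiation factors and the gene lists were chosen with earlier results of these data known. Named were up to 6 members higher and 6 lower per ligand comparison that passed under both scalings with groups apart (4 and 4 for interactions, 3 and 3 for vehicle over time), otherwise the 3 smallest p-values, 10 fixed genes at 4 h, and up to 2 genes per list. Other members are given as examples of their role group and were chosen after their values were seen. One marker gene of the leukocyte list is not reported here.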

Additional observations from a re-analysis of the deposited data

Results flagged for a closer look

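The response to HGF differed between 4 h and 1 h by the interaction term of edgeR's quasi-likelihood fit. This held for 42 of the 52 initiation factor genes, against 53.2% of all genes tested. Among the members the difference in log2 fold change, 4 h minus 1 h, was 1.39 for EIF5A2, 1.31 for EIF3J, 1.18 for EIF4E and 1.05 for EIF5B. It was -0.34 for EIF2AK2, -0.31 for EIF2AK1, -0.27 for EIF2D and -0.25 for EIF4B. Outside the family it was 1.41 for the eIF4E kinase gene MKNK2, 0.96 for the release factor gene GSPT1, 0.78 for the mitochondrial elongation factor gene GFM1 and -1.44 for PAIP2B, whose call was lost without replicate 2 of vehicle at 4 h (-1.13, adjusted p = 0.0521). For MSP the difference passed for PPP1R15A, which was lower at 4 h by the same measure (-0.40, adjusted p = 0.000126). Its sign was the same with library totals (-0.39).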

How the results depend on the processing

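The number of members called stayed within 1.5 times its value in every setting for HGF against vehicle, HGF against MSP, the HGF response over time and vehicle over time. It went from 0 to 1 for MSP without a low-count filter, at 1 h (EIF1AD, adjusted p = 0.0284), at 4 h (EIF3CL, adjusted p = 0.0175) and for the MSP response over time, and at 1 h with the DESeq2 Wald test. No value of a gene named by the naming rule changed sign after passing. For most of these genes the rule itself asked for a call under both scalings. Among all members, 2 passed in opposite directions under TMM factors and library totals for HGF against vehicle at 4 h (EIF3H and EIF3K). For HGF against MSP at 4 h 3 did (EIF2AK4, EIF3H and EIF3K). Leaving out 1 library gave 43 to 46 members for HGF against vehicle at 4 h, 12 to 15 at 1 h, 40 to 43 and 11 to 16 for HGF against MSP at 4 h and 1 h, 40 to 41 for the HGF response, 14 to 19 for vehicle over time and 0 for MSP. Of the values re-derived for members named by the naming rule 831 kept direction and call, 29 lost the call and 7 gained it. For list genes outside the family 363 kept and 5 lost it. The gained calls were those of EIF1AD and EIF3CL above and of EIF2AK3 at 4 h (4 settings, lower). The lost calls were those of EIF4ENIF1, EIF3L, EIF4EBP2, EIF4EBP1 (library totals), EIF2D (interaction, no filter, adjusted p = 0.0551), EIF3J in vehicle, PAIP2B, GSPT2 and EEF1B2. The cause was not tested. Replicate numbers were not taken to pair the samples, because not every same-numbered pair correlated and the labels name no shared batch. Deviations correlated at -0.065 to 0.12 (median 0.031) over 45 same-numbered pairs and at -0.138 to 0.119 (median -0.013) over 90 others. Of 18 samples 14 were closest on average to their own number, a hint of pairing from the data. A replicate block gave 46 members for HGF at 4 h, 17 at 1 h, 43 and 16 for HGF against MSP, 42 for the HGF response, 20 for vehicle over time and 0 for MSP. Depth limits EIF5AL1, EIF3CL and EIF4E3.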
